A study of Rattus norvegicus with 6 samples.

Results

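The genes described here are 10 immediate early genes, Egr1, Egr2, Egr3, Nr4a1, Nr4a2, Nr4a3, Ier2, Ier3, Klf4 and Myc, taken by symbol from the deposited table of 22250 rat genes. Of the 10, 9 were found by symbol. Ier2 was not analysed here. All 9 had enough reads to be tested. They were read in left ventricular myocardium from 3 young donor hearts (rats of 10 weeks, animals 3, 13 and 15) and 3 aged donor hearts (rats of 1 year, animals 3, 4 and 7), 1 library per heart. Animals are numbered separately in each group, and the number 3 stands for a different rat in each. All donors were Sprague-Dawley rats labelled wild type, every heart had been stored cold in University of Wisconsin solution and transplanted heterotopically into a young rat, and tissue was taken on day 1 after surgery. A heterotopic graft is perfused but pumps without a normal load, and it holds blood cells of its young recipient. No untransplanted heart was analysed here, so each comparison below is between transplanted hearts that differ in donor age. The question is which of these genes differed with donor age, and how evenly they did so from heart to heart.

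Immediate early genes are transcribed within minutes of a stimulus, from factors that the cell already holds, without new protein synthesis. Growth factors, stretch, adrenergic signals and reperfusion act through MAP kinases and through cAMP or calcium on serum response factor (SRF), its ETS partners and CREB, which sit at promoters before the stimulus arrives. Their transcripts are short-lived, and many of their proteins are transcription factors that switch on a later wave of genes or inhibitors that end the signal. In the heart they are known for responding to pressure load, ischemia and reperfusion, and they are also induced when neutrophils, macrophages and endothelial cells are activated. The Egr proteins are zinc finger factors that bind GC-rich promoter elements. The Nr4a proteins are orphan nuclear receptors that act without a known hormone, Ier3 is a stress-induced protein that modulates survival signalling, Klf4 is a Krüppel-like zinc finger factor of endothelial, smooth muscle and myeloid cells, and Myc drives ribosome production and growth.

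The table places the genes on the rat genome, for which the submitters' processing notes list Rnor_6.0. Egr1 lies at chr18:27657628-27661429, Egr2 at chr20:22454463-22459025 and Egr3 at chr15:51756736-51760722. Nr4a1 lies at chr7:142905758-142920216, Nr4a2 at chr3:43111240-43119159 and Nr4a3 at chr5:63781801-63821637. Ier3 lies at chr20:3438798-3440769, Klf4 at chr5:72283313-72287669 and Myc at chr7:102586313-102591240. As is typical of genes that must be read quickly, most are compact. The 9 genes span 1972 (Ier3) to 39837 bases (Nr4a3), with a median of 4563, whereas the median over the 13784 genes tested was 20932.5. A span as short as the members' median was found in 14.5% of the genes tested.

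Promoters are shown because the factors named above bind there. Sequences of the 250 bases before the transcription start were taken from RefSeq (build GRCr8) for Egr1, Egr2, Nr4a1 and Nr4a2, a set chosen to set a pair of Egr promoters beside a pair of Nr4a promoters. RefSeq promoters were matched for 6 of the 10 genes. Where several starts are listed for a gene, only the first listed was used, so the sites below describe that stretch alone. Capitals mark CArG boxes, the A/T-rich sites of SRF, and CGTCA or its reverse complement, the core of the cAMP response element bound by CREB. The Egr1 stretch is chr18:26736828-26737077 on the plus strand, the Egr2 stretch chr20:21054442-21054691 on the minus strand, the Nr4a1 stretch chr7:134259888-134260137 on the plus strand and the Nr4a2 stretch chr3:62104888-62105137 on the minus strand.
Egr1: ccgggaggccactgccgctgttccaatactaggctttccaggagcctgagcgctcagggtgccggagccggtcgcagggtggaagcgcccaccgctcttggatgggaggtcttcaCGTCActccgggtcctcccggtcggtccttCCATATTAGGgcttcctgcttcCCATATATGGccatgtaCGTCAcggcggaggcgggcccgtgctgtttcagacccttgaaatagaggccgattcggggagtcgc
Egr2: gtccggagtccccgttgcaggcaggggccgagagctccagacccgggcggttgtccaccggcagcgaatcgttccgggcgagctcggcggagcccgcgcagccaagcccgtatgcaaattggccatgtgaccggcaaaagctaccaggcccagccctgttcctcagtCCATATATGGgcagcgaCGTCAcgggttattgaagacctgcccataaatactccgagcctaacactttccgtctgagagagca
Nr4a1: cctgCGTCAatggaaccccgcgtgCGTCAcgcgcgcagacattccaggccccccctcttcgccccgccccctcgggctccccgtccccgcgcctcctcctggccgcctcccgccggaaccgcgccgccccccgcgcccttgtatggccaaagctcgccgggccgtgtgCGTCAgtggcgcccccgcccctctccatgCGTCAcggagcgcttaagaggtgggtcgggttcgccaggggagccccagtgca
Nr4a2: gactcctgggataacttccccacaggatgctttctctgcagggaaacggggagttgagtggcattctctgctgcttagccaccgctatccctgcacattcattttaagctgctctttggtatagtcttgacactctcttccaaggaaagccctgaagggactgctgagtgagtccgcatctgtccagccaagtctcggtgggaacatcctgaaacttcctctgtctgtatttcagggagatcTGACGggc
Egr1 held 2 CArG boxes, beginning 105 and 83 bases before the start, and Egr2 held 1, also beginning 83 bases before the start. Both carried a CGTCA core beginning 66 bases before the start. The spacing of the nearer CArG box and this core was therefore the same in both promoters. Egr1 held another core, beginning 135 bases before the start. Of 33469 rat promoters searched over the same length on both strands, 1.5% held a CArG box and 18.2% a CGTCA core. Nr4a1 had no CArG box and 4 CGTCA cores, beginning 246, 226, 82 and 53 bases before the start. As in Egr1, there were thus 2 or more cores, which were found in 3.98% of all promoters. Nr4a2 had a single core 8 bases before the start. Ier2, which has no value here, held the full element TGACGTCA 66 bases before its start, a match found in 1.59% of promoters that contains the core, and the Klf4 stretch held no CArG box and no core. Also searched were the Nr4a monomer site AAAGGTCA, the Egr site GCGTGGGCG and the AP-1 site TGANTCA, none of which occurred in these 6 stretches, against 1.24%, 0.478% and 6.34% of all promoters.

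Libraries held 21457509 to 24560869 reads counted on genes. Reads of mitochondrial genes took 11.9% to 21.7% of them in young and 6.56% to 10.3% in aged donor hearts, and libraries were scaled by TMM, the trimmed mean of log ratios between libraries. Levels are given as CPM, a gene's reads per fixed number of reads in the scaled library total. Groups were compared over all 13784 genes by edgeR's quasi-likelihood test. A gene is called past the limits where edgeR's unadjusted p-value was under 0.05 and the fold change exceeded 1.5 or fell short of 0.67. No call would survive adjustment: by edgeR with the Benjamini-Hochberg method, 0 genes stayed under 0.05 and the smallest adjusted value was 0.0916, while 4731 genes had an unadjusted p-value under 0.05. A single gene compared by an exact permutation test, two-sided, cannot give a p-value under 0.1 with 3 hearts against 3.

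Young animal 15 and aged animal 3 stood apart from the other hearts of their groups in markers of cell types. The summed level of 12 cardiomyocyte markers, such as myosin and troponin genes, was 13975 to 96778 CPM in young donor hearts, lowest in animal 15, and 186.4 to 8450 CPM in aged donor hearts, lowest in animal 3. All 12 were detected in every heart, but in aged animal 3 Myh6 was at 13.6 CPM and Tnnt2 at 37.4 CPM, so the labelled tissue shows few cardiomyocyte transcripts there. Neutrophil markers summed to 18.1 to 163.4 CPM in young, highest in animal 15, and to 413.9 to 1642 CPM in aged donor hearts. Of these markers, 8 of 10 were past the limits and higher, beside 13.2% of all genes tested. The same 13.2% stands beside the macrophage and T cell counts below. Macrophage markers summed to 341.1 to 2439 CPM in young, again highest in animal 15, and to 3835 to 7424 CPM in aged donor hearts, with 4 of 10 past the limits and higher. Each neutrophil marker had reads in some hearts, and Fpr1, at most 4.40 CPM, was the lowest. T cell markers summed to 29.3 to 80.6 and 96.2 to 145.3 CPM, with 2 of 6 tested past the limits and higher (Cd2 and Lck). Among them Cd8a was at 0.89 to 55.8 CPM in young and 63.8 to 99.0 CPM in aged donor hearts and not past the limits, whereas Cd3e and Cd3g, of the T cell receptor complex, had log2 fold changes of 0.53 and -0.37 at low levels and no call. The sum of endothelial markers overlapped between the groups (1215 to 1776 against 1026 to 1492 CPM). That of mural markers also overlapped (666.8 to 959 against 536.7 to 780.2 CPM). Past the limits and lower were 1 of 7 endothelial markers tested, Emcn (log2 fold change -1.34), and 1 of 6 mural markers, Rgs5 (-2.34). These counts stand beside 19.0% of all genes tested. The summed level of fibroblast markers was lower, at 6367 to 8181 against 2342 to 4488 CPM. Of 7 tested, 2 were past the limits and lower, Col1a1 (log2 fold change -1.61) and Col3a1 (-1.32), beside 19.0% of all genes tested. These collagen genes had the highest levels of the list in both groups, so the sum mainly follows them. Dcn, Lum, Tcf21, Postn and Pdgfra had no call, and Pdgfra alone had a positive log2 fold change (0.81). The sum of red blood cell markers overlapped, at 728.6 to 5781 against 246.2 to 3097 CPM. Of 5 tested, 1 was past the limits and lower, Slc4a1 (-2.97), beside the same 19.0%. In whole tissue, fewer cells of a type and less RNA per cell cannot be told apart.

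Among the 9 genes, 5 were past the limits and higher in aged donor hearts: Egr1, Egr3, Nr4a1, Nr4a3 and Ier3. Over all genes tested, 13.2% were past the limits and higher and 19.0% past the limits and lower, and 0 of the 9 were in the latter group. Higher genes made up 40.9% of the calls over all genes under TMM and 68.6% with libraries scaled by their totals alone, where 5 of the 9 were again past the limits. The median log2 fold change of the 9 was 1.40, whereas that of all genes tested was 0.016. In 6 of the 9, every aged donor heart lay above every young donor heart, a pattern seen in 21.0% of the genes tested. DESeq2 with all 6 hearts gave an adjusted p-value under 0.05 to 3 of the 9 (Egr1, Egr3 and Nr4a3) and to 3592 genes in all. Limma-voom with quality weights gave one to 8 of the 9 and to 8416 genes. Of these 8, Klf4 was lower in aged donor hearts (log2 fold change -0.77) and the others were higher.

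**Figure D1:**
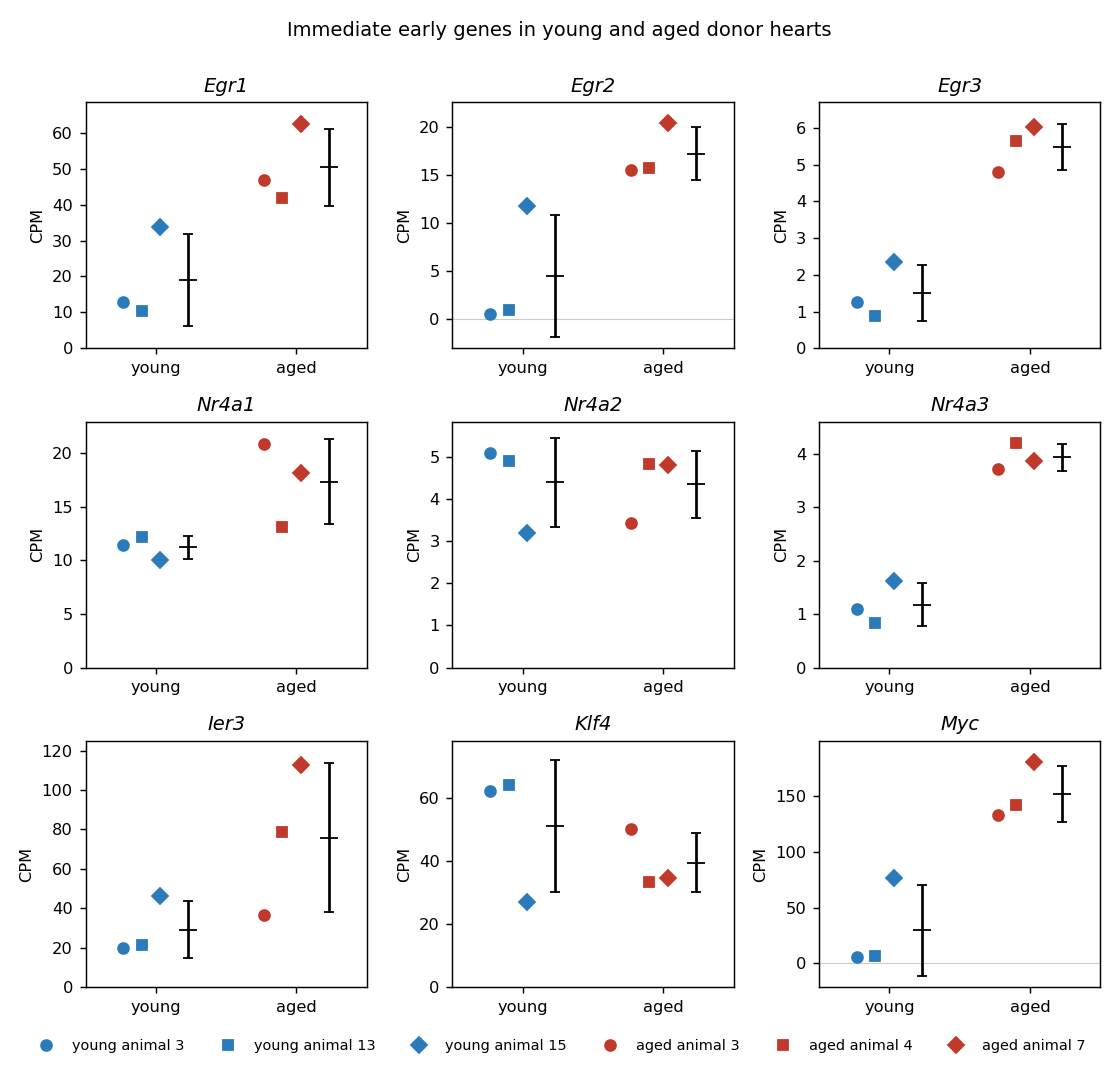
Level of each gene in each heart, in CPM (vertical axes with a scale of their own per gene), for 3 young (blue) and 3 aged (red) donor hearts, with the mean and SD of each group in black. Young animal 15 (blue diamond) lies above both other young hearts for Egr1, Egr2, Egr3, Nr4a3, Ier3 and Myc and below them for Nr4a1, Nr4a2 and Klf4.

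Egr1 (ENSRNOG00000019422), the archetype of the family, was at 12.9, 10.4 and 33.9 CPM in young animals 3, 13 and 15 and at 47.0, 41.9 and 62.5 CPM in aged animals 3, 4 and 7. The groups did not overlap, and the highest young heart lay nearer to the aged hearts than to the other young hearts. The group means were 19.1 ± 12.9 and 50.4 ± 10.7 CPM (SD, n = 3 each), and the log2 fold change was 1.40 with a standard error of 0.476. The adjusted p-value was 0.108 by edgeR with Benjamini-Hochberg adjustment (unadjusted 0.0241). Without young animal 3, young animal 13 or aged animal 7, Egr1 was no longer past the limits, at 1.18, 1.11 and 1.22.

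Egr2 (ENSRNOG00000000640), known for its part in myelination and in restraining lymphocytes, was nearly silent in a pair of the young hearts. It had 9, 15 and 286 reads in young animals 3, 13 and 15 and 472, 416 and 533 in aged animals 3, 4 and 7, which is 0.544, 0.954 and 11.8 CPM against 15.5, 15.8 and 20.4 CPM. The groups did not overlap, but young animal 15 was much closer to the aged hearts than to its own group. With a log2 fold change of 1.94 and a standard error of 1.08, Egr2 was not past the limits (edgeR unadjusted p = 0.12, Benjamini-Hochberg adjusted p = 0.232). With 95% confidence the log2 fold change lay between -0.66 and 4.54.

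Egr3 (ENSRNOG00000017828), a lower-abundance member that shares binding sites with Egr1, was counted 21, 14 and 57 times in young and 146, 149 and 157 times in aged donor hearts, in the same order of animals. These reads correspond to 1.27, 0.89 and 2.35 CPM in young and 4.80, 5.65 and 6.02 CPM in aged donor hearts. The 3 aged hearts lay close together and well above all young hearts. On the log2 scale it was higher by 1.85 ± 0.417 (standard error), and the adjusted p-value of edgeR with Benjamini-Hochberg adjustment was 0.0916, the smallest any gene reached (unadjusted 0.00381).

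The Nr4a receptors differed from each other. Nr4a1 (ENSRNOG00000007607, Nur77), induced by MAP kinase and calcium signals and known in macrophages and T cells, was at 11.4, 12.1 and 10.0 CPM in young animals 3, 13 and 15 and at 20.8, 13.1 and 18.1 CPM in aged animals 3, 4 and 7. Young hearts were tightly grouped and all lay below the aged hearts, although aged animal 4 was only just above them. The log2 fold change of 0.63 (standard error 0.242) is a fold of 1.55, close to the limit of 1.5, and the edgeR p-value was 0.0382 unadjusted and 0.128 with Benjamini-Hochberg adjustment. The call was lost in 5 of the 6 fits that each left out 1 heart, in which the log2 fold change ran from 0.48 without aged animal 3 to 0.80 without aged animal 4.

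Nr4a2 (ENSRNOG00000005600, Nurr1), best known from dopamine neurons, was at 5.08, 4.90 and 3.18 CPM in young and 3.42, 4.81 and 4.79 CPM in aged donor hearts. The ranges overlapped almost completely. Its log2 fold change was -0.013, with a 95% interval from -0.76 to 0.73 (edgeR adjusted p = 0.977 with Benjamini-Hochberg adjustment). Its sign depended on the scaling and on single hearts.

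Nr4a3 (ENSRNOG00000005964, Nor1), which responds to cAMP and hypoxia and is known in vascular cells, was counted 18, 13 and 39 times in young and 113, 111 and 101 times in aged donor hearts. As CPM this is 1.09, 0.827 and 1.61 against 3.71, 4.21 and 3.87. The aged hearts were within a narrow range, above each young heart. At a log2 fold change of 1.73, with a standard error of 0.348, Nr4a3 had the smallest unadjusted p-value of the 9 genes in edgeR, 0.00213, and the same Benjamini-Hochberg adjusted p-value as Egr3, 0.0916. Egr3 and Nr4a3 were past the limits in each of the 13 alternative fits, with log2 fold changes from 1.59 to 2.37 and from 1.53 to 2.11.

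Ier3 (ENSRNOG00000000827, also named IEX-1), a target of NF-κB and MAP kinases, was at 20.0, 21.4 and 46.0 CPM in young and 36.5, 78.7 and 113 CPM in aged donor hearts. The groups overlapped, since young animal 15 was above aged animal 3. The aged hearts were uneven here, with a mean of 75.9 ± 38.1 against 29.1 ± 14.7 CPM (SD, n = 3 each). Ier3 was past the limits with all hearts (log2 fold change 1.38, standard error 0.509, edgeR unadjusted p = 0.0328, Benjamini-Hochberg adjusted p = 0.121). Without young animal 3, young animal 13, aged animal 4 or aged animal 7, Ier3 was no longer past the limits, at 1.17, 1.20, 1.36 and 0.99, and without young animal 15 it was at 1.92.

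Klf4 (ENSRNOG00000016299) was not past the limits and was the only one of the 9 genes, beside Nr4a2, with a negative log2 fold change under TMM scaling. It was at 62.1, 64.1 and 27.0 CPM in young and 50.1, 33.3 and 34.6 CPM in aged donor hearts. Young animals 3 and 13 were the highest of all hearts and young animal 15 the lowest, so the aged hearts lay within the young range. The log2 fold change was -0.38 (standard error 0.367), with a 95% interval from -1.26 to 0.51 (edgeR adjusted p = 0.473 with Benjamini-Hochberg adjustment). Without young animal 15 it was -0.64 and past the limits, and with libraries scaled by their totals alone it was 0.17.

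Myc (ENSRNOG00000004500) had the widest range of the 9 genes in CPM. Its reads numbered 89, 98 and 1860 in young donor hearts (animals 3, 13, 15) and 4036, 3743 and 4695 in aged donor hearts (animals 3, 4, 7), or 5.38, 6.23 and 76.8 CPM against 132.6, 141.9 and 179.9 CPM. Aged hearts all lay above young hearts, and young animal 15 lay 13.2-fold above the mean of the other young hearts. The log2 fold change was the highest of the 9, at 2.36, but with a standard error of 1.06 it was not past the limits in edgeR (unadjusted p = 0.0647, Benjamini-Hochberg adjusted p = 0.165). The 95% interval ran from -0.19 to 4.91. DESeq2 gave an unadjusted p of 0.0149 to the same hearts, which puts Myc past the limits in that fit, but its adjusted p was 0.0545. Limma-voom with quality weights put Myc at 4.71 (adjusted p = 4.3e-04), near the 4.74 of edgeR without young animal 15.

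Young animal 15 bears on most of these values. Relative to the mean of young animals 3 and 13, it was 15.8-fold higher for Egr2, 2.91-fold for Egr1, 2.23-fold for Ier3, 2.18-fold for Egr3 and 1.68-fold for Nr4a3. It stood at 0.851 of that mean for Nr4a1, 0.637 for Nr4a2 and 0.428 for Klf4. On the log2 scale, its place on the way from young animals 3 and 13 to the mean of the aged hearts was 88.0% for Egr2, 79.3% for Myc, 73.6% for Egr1 and 66.7% for Ier3, but 47.8% for Egr3 and 36.5% for Nr4a3. When it was left out, 7 of the 9 genes were past the limits, 6 higher and Klf4 lower. The log2 fold change of Myc was then 4.74 (standard error 0.246) and that of Egr2 4.56 (standard error 0.354), while 7214 genes of all those tested were past the limits in place of 4436. Without young animal 3, young animal 13 or aged animal 7, 2 of the 9 were past the limits, and the counts over all genes were also lower, at 2432, 2495 and 3162.

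**Figure D2:**
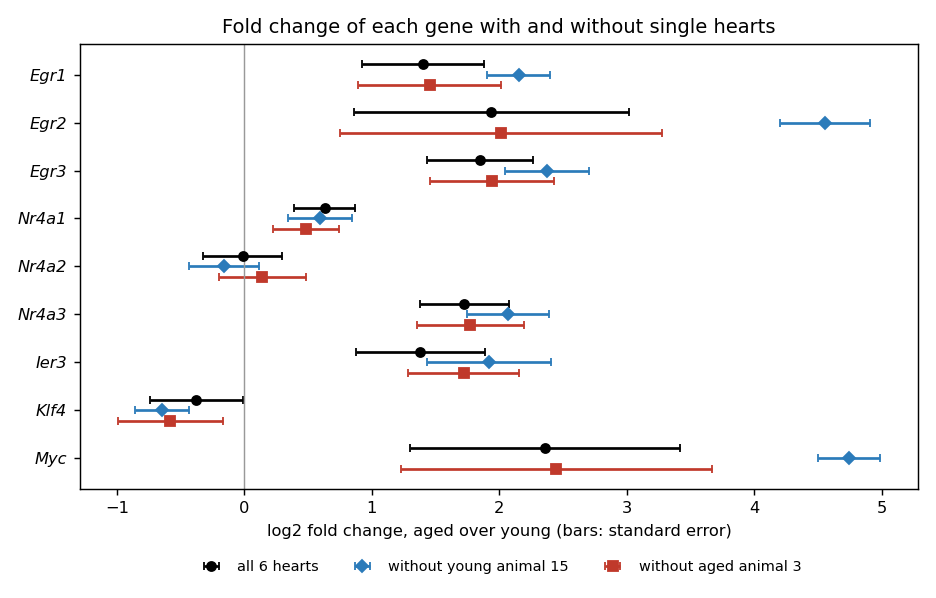
Log2 fold change of each gene in aged over young donor hearts (horizontal axis) with its standard error, from edgeR with all 6 hearts (black), without young animal 15 (blue) and without aged animal 3 (red). Egr2 and Myc move from 1.94 and 2.36 to 4.56 and 4.74 without young animal 15, whereas Nr4a1 and Nr4a2 move little.

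The part of leukocytes in the levels of the 9 genes was not tested. With the mean of the cardiomyocyte markers in each heart as a covariate, 3 of the 9 genes were past the limits, Egr3 at 1.72, Nr4a3 at 1.61 and Ier3 at 1.73 on the log2 scale. The covariate itself did not overlap between the groups, at 9.57 to 12.0 in young and 3.31 to 8.81 in aged donor hearts (mean log2 CPM). Donor age and cardiomyocyte transcripts therefore cannot be told apart by this fit. In that fit Egr1 was at 1.06, Nr4a1 at 0.39, Myc at 1.71 and Egr2 at 1.27, none of them past the limits, and 819 genes in all were. Without aged animal 3, which had the fewest cardiomyocyte transcripts, 4 of the 9 were past the limits, Nr4a1 being the gene lost. The count over all genes was also lower in that fit, at 3115 in place of 4436.

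Levels can be compared between genes only per length, as CPM per kilobase of the gene length in the table. In aged donor hearts, Ier3 (59.2 ± 29.7) and Myc (56.3 ± 9.32) were highest, followed by Klf4 (16.6 ± 3.94) and Egr1 (16.1 ± 3.43), all as mean CPM per kilobase ± SD with n = 3. Then came Nr4a1 (6.51 ± 1.48) and Egr2 (5.33 ± 0.856), and below them Egr3 (2.02 ± 0.231), Nr4a2 (1.29 ± 0.237) and Nr4a3 (0.894 ± 0.0577). Within the pairs Ier3 and Myc, Klf4 and Egr1, and Nr4a1 and Egr2, the means differed by less than the larger of their SDs. The order was different in young donor hearts, where Klf4 (21.6 ± 8.82) stood beside Ier3 (22.7 ± 11.4) at the top and Myc was at 11.0 ± 15.2. Over all 6 hearts, Ier3 lay at percentile 86.1 of the levels of all genes tested and Myc at 82.4, whereas Nr4a3 lay at 7.10 and Egr3 at 14.1. Egr3 and Nr4a3, the pair called in every alternative fit, were thus among the least abundant of the 9.

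Within the Egr family, the summed level was 8.02 ± 6.36 in young and 23.5 ± 4.40 CPM per kilobase in aged donor hearts (SD, n = 3 each), a difference that was not tested. Egr1 made up 80.5% ± 8.68 of the family in young and 68.5% ± 2.35 in aged donor hearts, and each young heart, from 70.5% upward, was above each aged heart, up to 70.0% (exact permutation test, two-sided, p = 0.1, the smallest possible). Egr2 contributed 3.54% to 23.8% in young and 22.2% to 24.0% in aged donor hearts, and its share overlapped between the groups (exact permutation test, two-sided, p = 0.3). Young animal 15 had the lowest Egr1 share and the highest Egr2 share of the young hearts, near those of the aged hearts. In the Nr4a family, whose summed level was 5.78 ± 0.609 in young and 8.70 ± 1.24 CPM per kilobase in aged donor hearts, Nr4a1 contributed 73.0% ± 1.70 and 74.3% ± 6.75. The share of Nr4a3 was 4.78% ± 2.17 in young and 10.5% ± 2.31 in aged donor hearts, without overlap (exact permutation test, two-sided, p = 0.1), and that of Nr4a2 was 22.3% ± 3.31 and 15.2% ± 4.56 (p = 0.2 by the same exact permutation test).

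**Figure D3:**
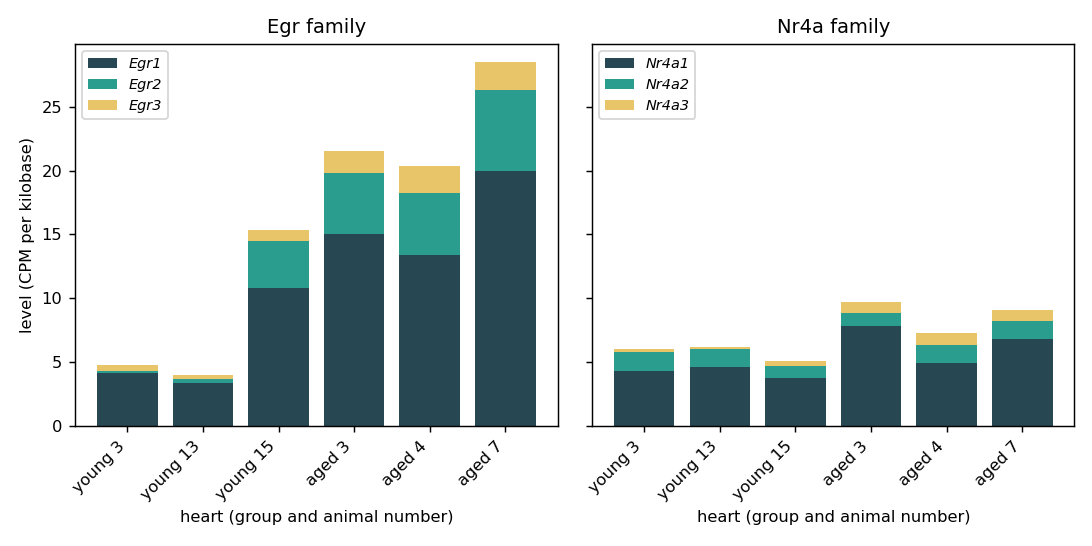
Level of the Egr genes (left) and the Nr4a genes (right) in each heart, stacked, in CPM per kilobase of gene length (vertical axis, shared). Young animals 3 and 13 hold little Egr2, young animal 15 resembles the aged hearts in its Egr make-up, and Nr4a1 is the largest part of the Nr4a family in all 6 hearts.

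Patterns over the 6 hearts were compared as the Euclidean distance between log2 CPM values centred by gene, a description in which all genes share the same libraries. Egr3 and Nr4a3 were close to each other (distance 0.438), and each was among the 3 nearest of 12957 genes to the other. After Nr4a3, Egr3 lay nearest to Qsox2 (0.443) and Sema3f (0.449). Nr4a3 lay nearer to Sema3f (0.252) than to Egr3, and Lonrf1 followed (0.460). Myc and Egr2 also lay near each other (0.558), Egr2 being the nearest gene to Myc. The gene nearest to Egr2 was Atf3 (0.406), a stress-induced factor of the AP-1 group, which was also the third nearest to Myc (0.667). Rims2 (0.538) and Cd8b (0.542) came next for Egr2, and Cd8b (0.571) lay between Egr2 and Atf3 in distance from Myc. The genes nearest to Egr1 were Spire1, RGD1565498 and Gmds (0.223 to 0.269). For Nr4a1 they were Chd7, Foxn2 and Max, the partner of Myc (0.131 to 0.195), and for Klf4 they were Arid3b, Afdn and Cygb (0.112 to 0.274). Nr4a2 lay nearest to Mapkap1, Dhx30 and Ankrd50 (0.228 to 0.231) and Ier3 to Acp5, Ficd and Reep6 (0.498 to 0.549). Between members, the distance was greatest for Klf4 and Myc (6.14).

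Related genes were followed in lists written from textbook roles. The counts of each list stand beside 13.2% past the limits and higher and 19.0% past the limits and lower over all genes tested. Of 9 AP-1 genes, which encode the Fos and Jun partners induced beside Egr1, 5 were past the limits and higher and 0 lower, with a median log2 fold change of 1.95. Maff (2.14), Fosl1 (2.35) and Fosl2 (1.27) had the smallest p-values. Of 25 other immediate early genes tested, 13 were past the limits and higher, those with the smallest p-values being Klf6 (1.43), Csrnp1 (1.09) and Klf10 (1.15), and 2 were lower, the clock gene Per1 (-0.62) and the synaptic scaffold gene Homer1 (-1.48). The median of these 25 was 0.92.

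Feedback inhibitors are induced by the same signals and end them. Of 17 tested, 8 were past the limits and higher and 1 lower, with a median of 0.95. Spry4 (1.69), an inhibitor of receptor tyrosine kinase signalling, Tnfaip3 (1.63), which restrains NF-κB, and Zfp36 (1.44), which speeds decay of AU-rich transcripts, had the smallest p-values of the higher genes, and Spry1 (-0.80) was the lower one. The Egr corepressors were not past the limits, with log2 fold changes of 0.95 for Nab2 (standard error 0.44) and 0.12 for Nab1 (standard error 0.149). These 2 genes were named after their values were seen, as partners of the Egr proteins.

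Of 16 kinases and factors tested that act on these promoters, 1 was past the limits and higher, the kinase gene Rps6ka1 (1.56), and 2 lower, Rps6ka5 (-1.85), whose product MSK1 phosphorylates CREB and histone H3, and Elk1 (-1.30), an ETS partner of SRF. Their median was 0.099 and their counts stand beside 13.2% higher and 19.0% lower over all genes. Srf itself was at -0.078 (standard error 0.261), a value also looked up after the fit because SRF binds the CArG box.

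Myc acts as a dimer with Max, and Mxd proteins compete for the same partner. Of 13 genes in this network, 1 was higher and past the limits, the antagonist Mxd1 (1.28), and 3 lower, the neuronal paralog Mycn (-3.27), the antagonist Mxd4 (-0.69) and Fbxw7 (-1.26), whose product marks Myc protein for degradation. The median of the network was 0.023. Over all genes tested, 13.2% were past the limits and higher and 19.0% past the limits and lower. These shares stand beside the counts of this network and of the lists below. Among 18 textbook targets of Myc, 10 were past the limits and higher, including Odc1 (0.81), Nop56 (1.11) and Ddx21 (1.28) of polyamine and ribosome production. Past the limits and lower were 2, Ccnd2 (-1.38) and Tfrc (-1.83), and the median was 0.95. Tfrc overlapped between the groups, at 41.9 CPM in young animal 15 and 61.5 to 82.5 CPM in aged donor hearts. Among other Krüppel-like factors, 0 of 10 were higher and 3 lower (Klf9 at -1.80, Klf15 at -4.15 and Klf12 at -1.14), with a median of 0.0045. Of 9 nuclear receptor genes whose products pair with or oppose the Nr4a receptors, 0 were higher and 1 was lower, Rxrg (-3.91), with a median of -0.68.

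**Figure D4:**
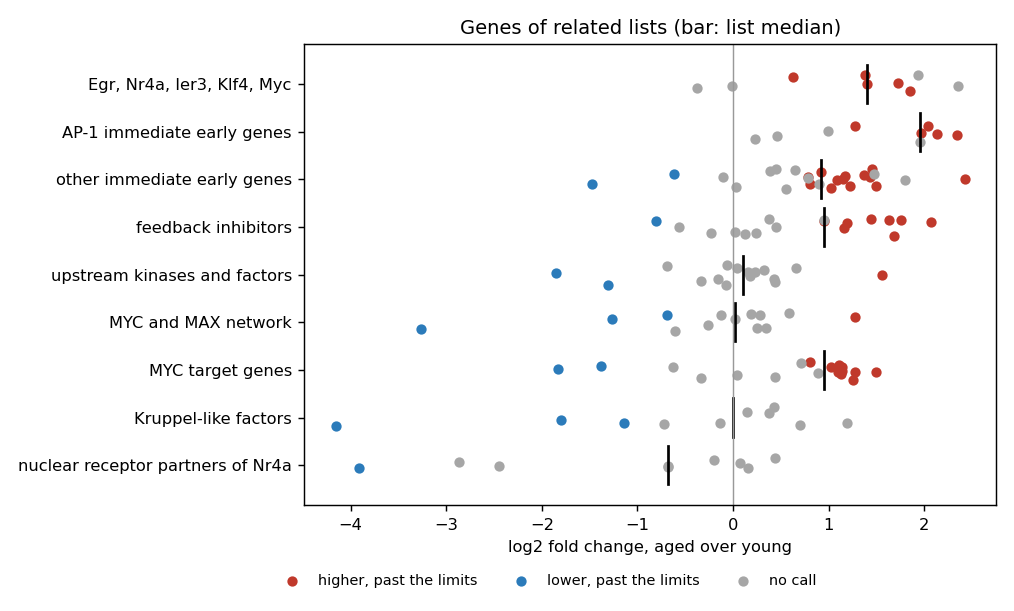
Log2 fold change in aged over young donor hearts (horizontal axis) of each tested gene in the 9 lists, with red for higher and past the limits, blue for lower and past the limits, and grey for no call, and black bars at the list medians. The medians of the immediate early gene lists, the feedback inhibitors and the Myc targets lie between 0.92 and 1.95, those of upstream factors and the Myc and Max network between 0.023 and 0.099.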

How the data were processed

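RNA-Seq libraries of 6 transplanted rat hearts were analysed, 3 per donor age, as polyadenylated RNA. The authors deposited raw read counts per gene, without normalization, and FPKM values, in which reads are taken per length and per library total. No result rests on FPKM. The submitters' processing notes list HISAT2 2.0.5, StringTie 1.3.3b, featureCounts 1.5.0-p3, DESeq2 1.16.1, GATK 3.7 and Rnor_6.0. Use of strand is not given in the sources used here, so reads of overlapping genes may be shared.

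Tests on the counts used edgeR 4.0.16 under R 4.3.3 (filterByExpr, TMM, glmQLFit, glmQLFTest, no covariates), with DESeq2 1.42.0 and limma 3.58.1 as alternatives. Standard errors were taken from the F statistic, as the size of the log2 fold change over its root. Log2 CPM used a prior count of 2, and the limits on fold and unadjusted p follow the study's methods. Promoters came from RefSeq (GRCr8). The steps were tested on simulated data. On the TMM-scaled depth, 3 counts correspond to 0.0985 CPM in aged animal 3 and up to 0.191 CPM in young animal 13, so low levels are less precise in the latter. Replicates are separate donor animals.

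Genes named were the 10 immediate early genes, up to 3 genes per direction in each related list with the smallest p-values among those past the limits and at least 1 CPM, the 3 genes nearest to each of the 9 found, and markers. The 10 genes, lists and markers were chosen with earlier results of these data known, so no p-value was adjusted over a list and no set was tested.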

Additional observations from a re-analysis of the deposited data

How the results depend on the processing

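The count of the 9 genes past the limits, 5 with all hearts, was 3 with the cardiomyocyte score as a covariate, 0 with the Benjamini-Hochberg adjusted p-value of edgeR (5 had an unadjusted p under 0.05), and 2 to 7 when hearts were left out singly (7 without young animal 15, and 2 without young animal 3, young animal 13 or aged animal 7). Over all genes, 4436 past the limits became 7504 with limma-voom, 819 with the covariate, 0 with adjusted p-values and 2432 to 7214 without single hearts. For the related lists, 52 became 15 with the covariate, 0 with adjusted p-values and 29 to 78 without single hearts. Scaling by library totals alone gave a median log2 fold change over all genes of 0.46, and the share of higher genes among those past the limits went from 40.9% to 68.6%. Under it Klf4 was at 0.17 and Nr4a2 at 0.47, against that shift. Nr4a2 also changed sign with no filter (0.012) and with the covariate (0.49), and ran from -0.16 to 0.14 across the fits without single hearts. Egr1 ran from 1.11 to 2.15 and Nr4a1 from 0.48 to 0.80 in those fits. Adjusted p-values over all alternatives ran from 2.45e-04 to 0.749 for Nr4a3 and from 5.8e-04 to 0.749 for Egr3. The causes were not tested. No paired analysis was possible because the groups share only 1 animal number, which marks different rats.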
